A study of Mus musculus with 6 samples.

Results

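The 10 genes described here are members of the BCL2 family, whose proteins decide whether a cell releases cytochrome c from its mitochondria and dies. Their RNA was followed in lung group 2 innate lymphoid cells (ILC2s) with and without cannabinoid receptor 2 (CB2). They were taken by name: the pro-survival genes Bcl2, Bcl2l1 (BCL-XL), Mcl1 and the A1 copies Bcl2a1a, Bcl2a1b and Bcl2a1d, the BH3-only genes Bcl2l11 (BIM), Bid and Bmf, and the effector gene Bak1 (BAK). All 10 were found among 18478 genes. RNA was sequenced from 3 WT and 3 CB2 KO libraries of ILC2s sorted from the lungs of BALB/c mice of 6 weeks. Both groups had received 3 intranasal doses of 1 µg mouse IL-33, and the sorted cells were then kept for 24 h in medium with IL-7 and IL-2 (10 ng/mL of each). The WT and CB2 KO groups differ, by the labels, only in CB2, which Cnr2 encodes; how Cnr2 was deleted, and whether the libraries of a group came from separate or pooled mice, the sources used here do not say. P-values therefore measure the spread between these libraries, which may be technical.

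Pro-survival BCL2 proteins hold BAK and BAX in check on the mitochondrial outer membrane. BH3-only proteins, switched on by cytokine loss, damage or death receptors, occupy the groove of the pro-survival proteins or act on BAK and BAX directly, which then open the membrane. In lymphocytes, IL-7 and IL-2 signal through STAT5 and favour the pro-survival side, and BIM is a main trigger of death when these cytokines are withdrawn.

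The A1 copies are shown by sequence because the counts of each copy depend on how reads were shared out between them. They lie on chromosome 9 (mm10), Bcl2a1d at chr9:88723285-88731914 on the minus strand, Bcl2a1a at chr9:88956900-88962419 and Bcl2a1b at chr9:89199209-89207827 on the plus strand. The first coding bases of each are printed from the GENCODE M21 transcripts, 5′ to 3′, from chr9:88957051-88957155 for Bcl2a1a, chr9:89199360-89199464 for Bcl2a1b and chr9:88731615-88731719 for Bcl2a1d; capitals mark positions where the copies are not all the same.
Bcl2a1a: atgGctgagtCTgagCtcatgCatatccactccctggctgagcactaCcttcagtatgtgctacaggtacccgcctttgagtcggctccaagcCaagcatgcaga
Bcl2a1b: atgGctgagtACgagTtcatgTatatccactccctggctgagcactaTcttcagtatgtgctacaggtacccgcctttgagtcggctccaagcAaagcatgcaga
Bcl2a1d: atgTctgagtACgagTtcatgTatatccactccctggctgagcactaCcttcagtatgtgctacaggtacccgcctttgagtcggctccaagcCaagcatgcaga
Over the 519 coding bases the copies differ at 12 positions, 7 of them in these stretches. Bcl2a1a and Bcl2a1b differ at 11 positions (97.9% identity), Bcl2a1a and Bcl2a1d at 7 (98.7%), and Bcl2a1b and Bcl2a1d at 6 (98.8%). Of all stretches of 75 bases in their transcripts, 55.2% of those of Bcl2a1a, 43.5% of those of Bcl2a1b and 67.6% of those of Bcl2a1d also occur in another A1 copy. The sources used here do not give the read length. With 50 bases these shares were 69.0%, 57.6% and 79.5%. The reference sequence is that of C57BL/6J, whereas the mice were BALB/c, so bases of the copies in these cells may differ.

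The libraries held 17141698 to 21621008 estimated counts, so that a gene with 0 counts could still be at up to 0.140 to 0.174 CPM, the level of 3 counts (depth-scaled counts, with library sizes adjusted by the trimmed mean of M-values). Such limits cover counting error only. Cnr2 was at 9.32, 17.4 and 15.8 CPM in WT libraries 1 to 3. In CB2 KO libraries 1 to 3 it was at 9.24, 1.60 and 3.84 CPM. Its log2 difference of -1.52 (SE 0.56) did not pass (edgeR quasi-likelihood F-test, Benjamini-Hochberg, unadjusted p = 0.0287, adjusted p = 0.514). The library labelled CB2 KO replicate 1 thus held as much Cnr2 as WT replicate 1. The same library was set apart by principal component 1 (37.6% of variance) and detected 15005 genes, where the others detected 15640 to 16514. All 10 ILC2 markers listed were tested, with 0 of them at 0 throughout either group. Their log2 differences were negative for 8 (median -0.23). In every CB2 KO library 6 were lower, and 1 higher, than in any WT library, against 7.18% and 6.88% of all tested genes. None passed in edgeR (0 of 10), and 5 had an unadjusted p under 0.05 in edgeR, against 8.60% of all tested genes. DESeq2 called 2, Icos lower and Il5 higher, against 2.58% of all tested genes. Of 6 mast cell and basophil markers, summed levels were 17.5 to 28.3 CPM (WT) and 41.4 to 86.9 CPM (CB2 KO). Ms4a2 was at 0 in every library but CB2 KO replicate 3 (31 counts). Tpsb2 was at 2.29 ± 0.94 and 23.3 ± 8.41 CPM, without overlap, as were Fcer1a and Mcpt8. Cpa3 overlapped, at 15.3 ± 4.88 and 21.9 ± 6.82 CPM, as did Tpsab1. Of the 5 tested, 0 passed in edgeR. DESeq2 called 1, Tpsb2 (adjusted p = 5.59e-11 in DESeq2 and 0.0860 in edgeR), against 2.58% of all tested genes. Of 7 macrophage and monocyte markers, 5 were in the table. Their sums were 12.1 to 59.2 CPM (WT) and 150.2 to 168.8 CPM (CB2 KO). Most of the CB2 KO sum was Chil3, at means of 18.9 ± 25.1 (WT) and 128 ± 18.4 CPM (CB2 KO). Lyz2 was at 1.64 ± 0.79 and 17.3 ± 5.98 CPM, also without overlap. Of the 4 tested macrophage and monocyte markers, 0 passed in edgeR. DESeq2 called 1, Lyz2 (adjusted p = 3.49e-09 in DESeq2 and 0.0693 in edgeR). Cd68 overlapped between the groups, at 8.71 ± 1.96 and 9.63 ± 3.09 CPM (SD, n = 3 each). Csf1r was at 0 in WT replicates 1 and 3 and CB2 KO replicate 1. Mrc1 was at 0 in every library but CB2 KO replicate 2 (88 counts). Of 6 T cell markers, 3 were in the table, with sums of 10.9 to 17.5 CPM (WT) and 26.4 to 30.2 CPM (CB2 KO). Most of each sum was Cd3g, at 14.0 ± 3.93 and 26.1 ± 2.53 CPM, without overlap. Cd3d (0.29 ± 0.20 and 0.44 ± 0.37 CPM) and Cd3e (0.28 ± 0.44 and 2.03 ± 1.40 CPM) were low and overlapped between the groups. B cell marker sums overlapped between the groups, at 10.9 to 17.3 CPM (WT) and 12.8 to 14.9 CPM (CB2 KO). So did those of epithelium and endothelium, at 50.7 to 144.6 CPM (WT) and 47.5 to 58.5 CPM (CB2 KO). Of 6 neutrophil markers, 0 were found. The part of any of these cells in the levels of the BCL2 family was not tested. In bulk RNA, fewer cells of a type and less RNA per cell cannot be told apart.

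Of the 10 genes, 0 passed the test for a difference between CB2 KO and WT. Of the 10, 8 had enough counts to be tested, Bcl2a1a and Bmf being left out as too low. Of those 8, 5 log2 fold changes were positive and 3 negative, the median being 0.16 against -0.00 over all 14084 genes tested, of which 7037 were positive. With the edgeR quasi-likelihood F-test, Benjamini-Hochberg adjusted over the whole table, 0 of 8 had an adjusted p under 0.05, where 15 of all tested genes did (0.107%; 0.0426% higher and 0.0639% lower in CB2 KO). DESeq2 called 0 of 8 as well, against 2.58% of all genes. At an unadjusted p under 0.05 edgeR had 2, Mcl1 and Bcl2l11, against a background of 8.60%, and DESeq2 had 1, Mcl1, against 11.9%. The groups did not overlap for 2 of the 8, where 14.1% of all tested genes were so separated: Mcl1 was higher in CB2 KO (6.88% of all genes) and Bak1 lower (7.18%).

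**Figure D1:**
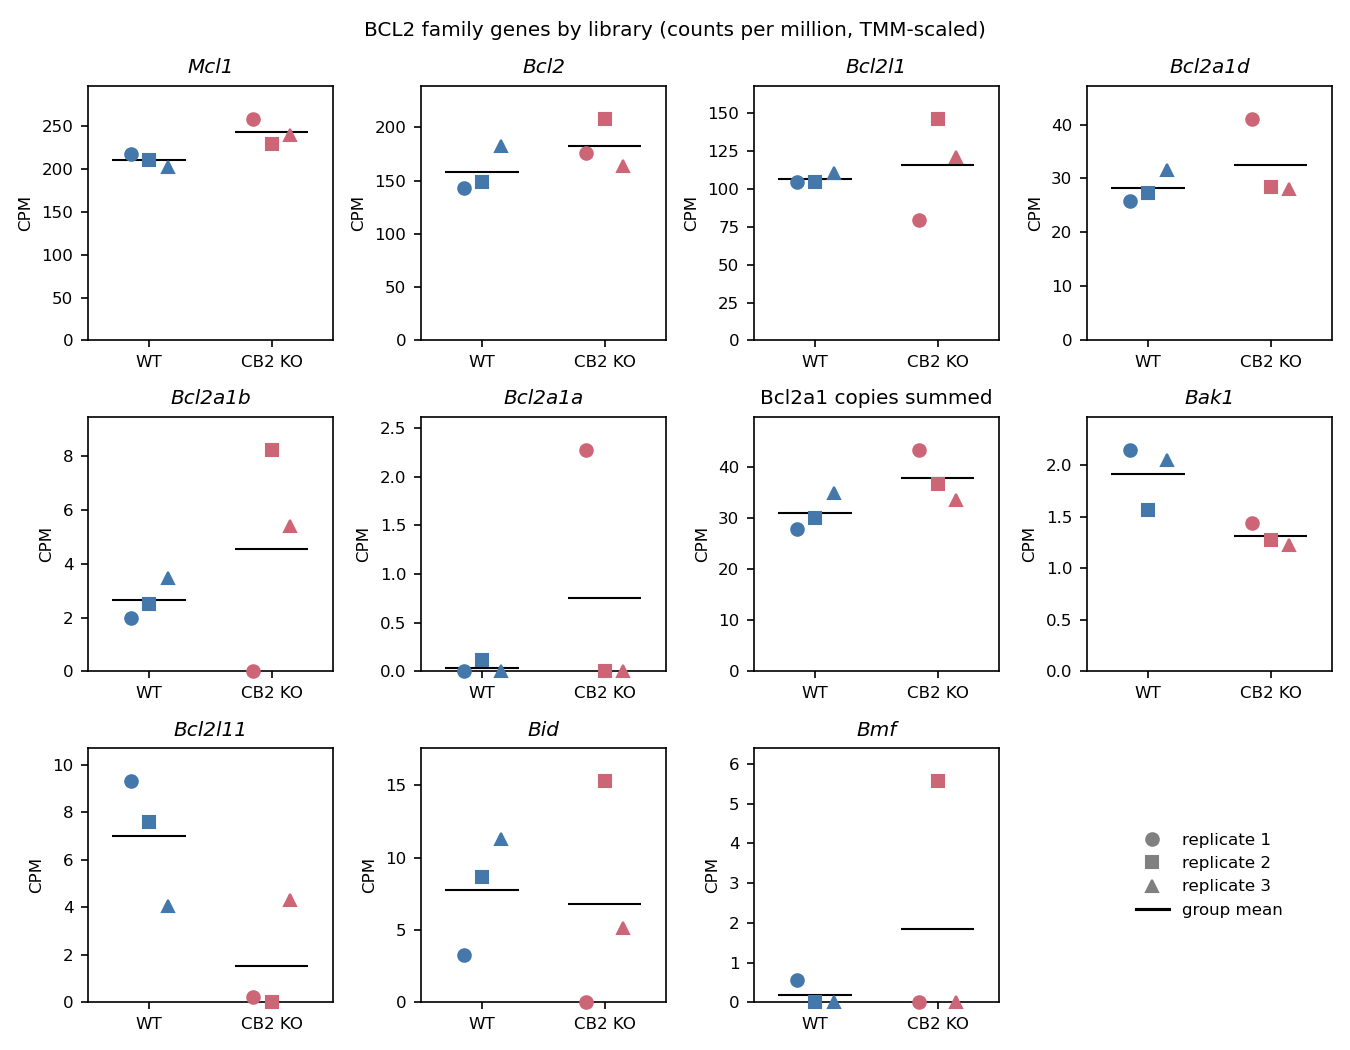
CPM of each gene in the 6 libraries, and of the A1 copies summed, with 1 point per library, marker shapes for the replicate number, a line at the group mean and every axis starting at 0. Mcl1 sits between 202 and 218 CPM in WT and between 230 and 258 CPM in CB2 KO, whereas Bcl2l11, Bid and Bmf each have libraries at or near 0.

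Mcl1, a short-lived pro-survival protein that lymphocytes need continuously, had the most RNA of the 10 genes, also per length. Its gene lies at chr3:95658788-95663176 on the plus strand. Levels were 218, 210 and 202 CPM in WT libraries 1 to 3 and 258, 230 and 240 CPM in CB2 KO libraries 1 to 3. The 3 CB2 KO libraries all exceeded the 3 WT libraries, by a narrow margin for CB2 KO replicate 2, and the library labelled CB2 KO replicate 1 was the highest. The means were 210 ± 8.16 CPM for WT and 243 ± 14.4 CPM for CB2 KO (SD, n = 3 each), 15.6% higher. The difference, 0.21 on the log2 scale (SE 0.08), did not pass (edgeR quasi-likelihood F-test, unadjusted p = 0.0422, Benjamini-Hochberg adjusted p = 0.567). DESeq2 gave an unadjusted p of 0.00657 and an adjusted p of 0.138. Permuting the library labels of the CPM (exact, two-sided) gave p = 0.1, which is as low as 3 against 3 can reach.

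Bcl2, the founding pro-survival gene of the family and the one IL-7 is best known for sustaining, lies at chr1:106538178-106714274 on the minus strand. It was at 143, 149 and 182 CPM in WT libraries 1 to 3 and at 176, 208 and 164 CPM in CB2 KO libraries 1 to 3. The groups overlapped: WT replicate 3 exceeded CB2 KO replicates 1 and 3. With means of 158 ± 21.4 and 183 ± 22.5 CPM (SD, n = 3 each), the difference was 0.22 on the log2 scale (SE 0.14) and did not pass (edgeR quasi-likelihood F-test, Benjamini-Hochberg, adjusted p = 0.704). Leaving out CB2 KO replicate 2 gave 0.12, and leaving out WT replicate 3 gave 0.33. The antisense gene D630008O14Rik overlaps Bcl2 and was at a mean of 2.12 CPM, so it could add little to the counts of Bcl2 if the strand was not used.

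Bcl2l1, whose long product BCL-XL guards mitochondria much as BCL2 does, lies at chr2:152780668-152831728 on the minus strand. WT libraries 1 to 3 were close together at 104.8, 104.5 and 110.4 CPM. CB2 KO libraries 1 to 3 were spread on both sides of them, at 79.5, 146 and 121 CPM. The difference, 0.12 on the log2 scale (SE 0.22), did not pass (edgeR quasi-likelihood F-test, Benjamini-Hochberg, adjusted p = 0.918), and it turned to -0.10 without CB2 KO replicate 2. The library labelled CB2 KO replicate 1 was the lowest of the 6 for Bcl2l1 and the highest for Mcl1. Counts over the whole gene cannot separate the long product from the short one, BCL-XS, which promotes death.

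A1 is a pro-survival protein of blood cells, induced by NF-kappaB and present in the mouse as several gene copies. Its RNA was given mostly to Bcl2a1d, with 25.8, 27.3 and 31.5 CPM in WT libraries 1 to 3 and 41.0, 28.4 and 28.1 CPM in CB2 KO libraries 1 to 3. Bcl2a1d took 90.1 to 92.9% of the A1 counts in WT and 94.7, 77.5 and 83.8% in CB2 KO libraries 1 to 3. Bcl2a1b was at 1.98, 2.52 and 3.46 CPM in WT and at 0, 8.21 and 5.41 CPM in CB2 KO. Bcl2a1a showed the reverse pattern within CB2 KO, at 2.27 CPM (45.8 estimated counts) in replicate 1 and at 0 in replicates 2 and 3. In WT, Bcl2a1a had 2.36 estimated counts in replicate 2 and 0 in replicates 1 and 3. So the 5 libraries that gave counts to Bcl2a1b gave almost none to Bcl2a1a, and the library labelled CB2 KO replicate 1 did the opposite.

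**Figure D2:**
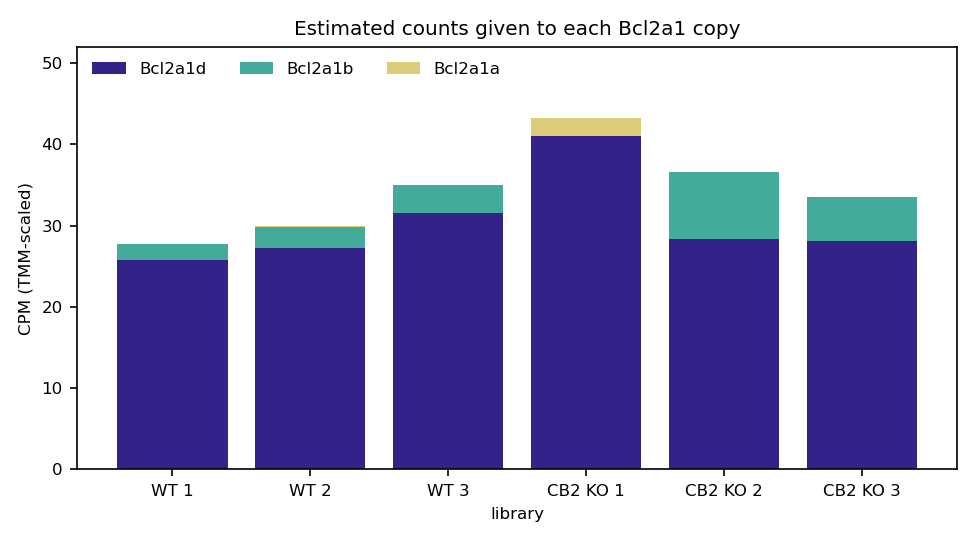
CPM assigned to Bcl2a1d, Bcl2a1b and Bcl2a1a in each library, stacked, so that the height of a bar is their sum. The sum runs from 27.8 to 43.3 CPM, and the library labelled CB2 KO replicate 1 is the only one of the 6 with Bcl2a1a in place of Bcl2a1b.

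Neither copy that was tested passed. Bcl2a1d had a log2 difference of 0.22 (SE 0.24) and Bcl2a1b of 0.81 (SE 0.87), with adjusted p of 0.861 and 0.852 in the edgeR quasi-likelihood F-test, Benjamini-Hochberg. The difference of Bcl2a1d was 0.011 when the library labelled CB2 KO replicate 1 was left out. The difference of Bcl2a1b turned to -0.060 without CB2 KO replicate 2, and to -1.36 with limma-voom. Summing the copies lessens the dependence on how reads were split among them. The sum was 27.8, 29.9 and 35.0 CPM in WT libraries 1 to 3 and 43.3, 36.6 and 33.5 CPM in CB2 KO libraries 1 to 3. The groups overlapped in WT replicate 3 and CB2 KO replicate 3. Their means of 30.9 ± 3.70 and 37.8 ± 5.0 CPM (SD, n = 3 each) gave a log2 difference of 0.31 (SE 0.21), which did not pass when the sum took the place of the copies in the fit over all genes (edgeR quasi-likelihood F-test, Benjamini-Hochberg, adjusted p = 0.737). Leaving out the library labelled CB2 KO replicate 1 gave 0.20. Mast cells and macrophages also express A1, and their marker sums given above were higher in every CB2 KO library than in any WT library. In CB2 KO the macrophage sum was mostly Chil3, and Cd68 overlapped between the groups. Of the mast cell and basophil markers, Tpsb2, Fcer1a and Mcpt8 were separated, whereas Cpa3 and Tpsab1 overlapped. The part of these cells in the A1 counts was not tested. A further copy, Bcl2a1c, was at a mean of 0.135 CPM. Bcl2a1b is overlapped on its own strand by Gm29094 (mean 1.5 CPM), with which reads could be shared.

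Bak1, the effector that sits in the outer membrane and forms pores when activated, lies at chr17:27019810-27029009 on the minus strand and was at low levels. It was at 2.14, 1.56 and 2.04 CPM (46, 32 and 36.1 estimated counts) in WT libraries 1 to 3 and at 1.43, 1.27 and 1.22 CPM (28.9, 27 and 21 counts) in CB2 KO libraries 1 to 3. Every CB2 KO library was below every WT library, by a narrow margin between WT replicate 2 (32 counts) and CB2 KO replicate 1 (28.9 counts). The means were 1.92 ± 0.31 and 1.31 ± 0.11 CPM (SD, n = 3 each), a difference of -31.6% from WT, which did not pass at -0.54 on the log2 scale (SE 0.42) (edgeR quasi-likelihood F-test, Benjamini-Hochberg, unadjusted p = 0.225, adjusted p = 0.774). The exact two-sided permutation test gave p = 0.1, the smallest it can give. Libraries of a group were close together for Bak1: 2.73% of the 1536 genes of like abundance (mean count within 1.5-fold) had a smaller spread. At a mean of 31.8 counts, counting error is large, so this closeness need not mean steady levels. Ggnbp1 spans the whole of Bak1 on the other strand, at a mean of 0.401 CPM.

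The partner effector Bax, which is not among the 10 genes, was far more abundant. It was at 328, 347 and 311 CPM in WT libraries 1 to 3 and at 402, 344 and 385 CPM in CB2 KO libraries 1 to 3. Per kilobase of exon, Bax was at 224 CPM and Bak1 at 0.670 CPM (means over 6 libraries).

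Bcl2l11, encoding BIM, had the largest log2 difference of the 8 tested genes. Its gene lies at chr2:128126038-128162547 on the plus strand. It had 200, 156 and 72 counts in WT libraries 1 to 3 (9.32, 7.61 and 4.08 CPM) and 5, 0 and 74 counts in CB2 KO libraries 1 to 3 (0.248, 0 and 4.30 CPM). The 0 allows a level of up to 0.142 CPM by counting error alone. So 2 of 3 CB2 KO libraries had next to no Bcl2l11, while CB2 KO replicate 3 was above WT replicate 3. The means were 7.0 ± 2.67 and 1.52 ± 2.42 CPM (SD, n = 3 each), a difference of -78.3% from WT. The log2 difference of -2.40 (SE 0.98) had an unadjusted p of 0.0361 and an adjusted p of 0.550 in the edgeR quasi-likelihood F-test, Benjamini-Hochberg, and DESeq2 gave an unadjusted p of 0.112. Permuting the CPM (exact, two-sided) gave p = 0.2. Leaving out CB2 KO replicate 3 moved the log2 difference to -5.82, and leaving out CB2 KO replicate 2 to -1.76, with the call unchanged.

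The promoter of Bcl2l11 is shown because FOXO factors, which AKT signalling restrains, are known to activate this gene. The stretch chr2:128125788-128125857 on the plus strand (RefSeq, GRCm38.p6) is printed 5′ to 3′, with the letters GTAAACA of a FOXO core motif in capitals, 227 bases before the annotated start.
Bcl2l11: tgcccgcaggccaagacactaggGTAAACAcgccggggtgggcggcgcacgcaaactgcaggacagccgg
These letters, searched on both strands, were in 1 of 15 promoter windows of the 10 genes and in 3.65% of 32851 windows of 300 bases. The STAT motif TTCNNNGAA was in 0 of the 15 windows and in 8.30% of all. A match in a window is a description of letters, and no binding was measured here. WT and CB2 KO means were 57.6 ± 14.9 and 45.4 ± 8.08 CPM for Foxo1, and 3.55 ± 4.20 and 8.64 ± 3.42 CPM for Foxo3 (SD, n = 3 each).

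Bid, which caspase-8 cleaves to link death receptors to mitochondria, lies at chr6:120891930-120916853 on the minus strand. It was at 3.27, 8.68 and 11.3 CPM in WT libraries 1 to 3 and at 0, 15.3 and 5.12 CPM in CB2 KO libraries 1 to 3. CB2 KO libraries thus held both the lowest and the highest value of the 6, the lowest in the library labelled CB2 KO replicate 1. The difference, -0.09 on the log2 scale (SE 0.90), did not pass (edgeR quasi-likelihood F-test, Benjamini-Hochberg, adjusted p = 0.985). It turned to 0.51 when the library labelled CB2 KO replicate 1 was left out, and to 0.03, 0.25 and 0.06 without WT replicates 2 and 3 and CB2 KO replicate 3. The end of Bid overlaps Bcl2l13 on the other strand over 913 bases, and Bcl2l13 was at a mean of 63.8 CPM, so reads of Bcl2l13 could enter Bid if the strand was not used.

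Bmf, a BH3-only gene tied to loss of attachment and to cytokine withdrawal, lies at chr2:118528757-118549687 on the minus strand. It had 12 counts in WT replicate 1, 118 counts (5.57 CPM) in CB2 KO replicate 2 and 0 in the other 4 libraries. It was too low in too many libraries to be tested, and the 118 counts come from a single library.

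Spread between replicates was smaller for the abundant members than for most of the low ones, Bak1 excepted. As a pooled coefficient of variation within groups, it was 5.17% for Mcl1, 12.9% for Bcl2, 18.5% for Bcl2a1d and 21.5% for Bcl2l1. It was 59.8% for Bcl2l11, 83.4% for Bcl2a1b, 85.5% for Bid, 224% for Bmf and 233% for Bcl2a1a, and 14.5% for Bak1. Genes of the same abundance also varied: those within 1.5-fold of the mean count had a median of 9.97% for Mcl1, 11.2% for Bcl2, 13.7% for Bcl2l1, 56.1% for Bcl2l11, 45.5% for Bid and 96.7% for Bmf. Set against genes of like abundance, Mcl1 varied more than 8.70% of them, Bcl2 more than 62.5% and Bcl2l1 more than 84.1%, so Bcl2l1 was unsteady for its level. Bcl2l11 was near the middle (54.5%), whereas Bid was above 90.6% and Bmf above 94.7%. A library with under 1 count was found for 29.5% of the 1335 genes as abundant as Bcl2l11 and for 15.1% of the 1508 genes as abundant as Bid. In the library labelled CB2 KO replicate 1 alone, 9.55% of the genes as abundant as Bid had under 1 count, against 0.663 to 2.98% in the other libraries. Of the genes as abundant as Bcl2l11, 16.2% had under 1 count in that library, against 1.87 to 7.49% in the other libraries. Libraries were made from 10 ng of RNA.

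**Figure D3:**
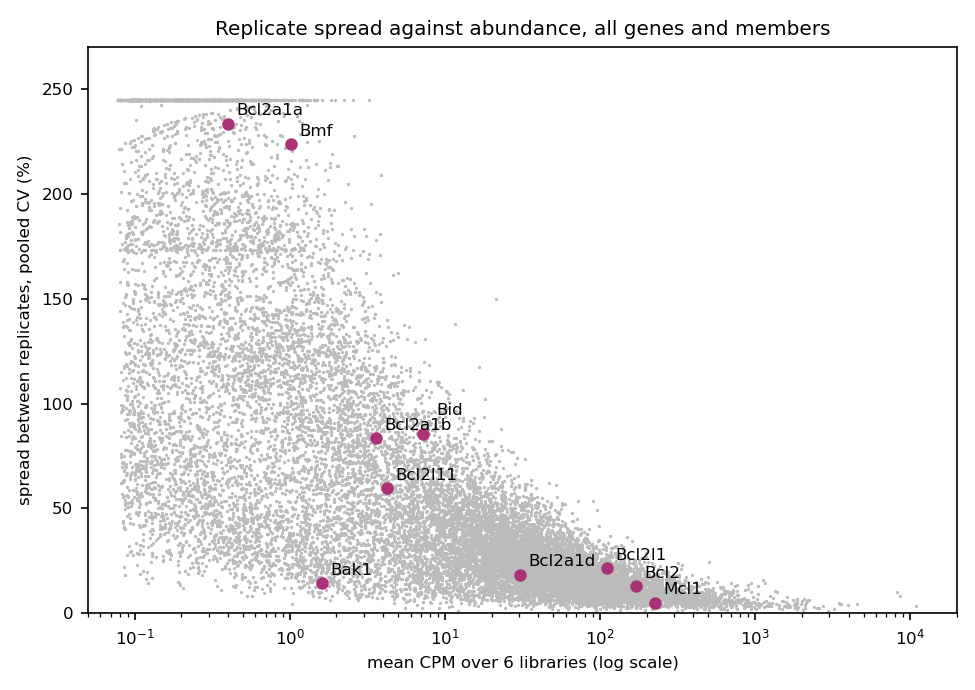
Pooled coefficient of variation within groups (percent) against the mean CPM over 6 libraries on a log axis, for genes with a mean of at least 0.05 CPM (grey) and the 10 genes (purple). Mcl1, Bcl2 and Bcl2l1 lie at the abundant end, where spread is small for most genes, with Bcl2l1 above 84.1% of genes of its abundance; Bid and Bmf near the upper edge of genes of their abundance, and Bak1 near the lower edge.

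Levels of different genes were compared per kilobase of annotated exon. Mcl1 was highest, at a mean of 66.3 CPM per kb and 59.1 to 75.6 over the 6 libraries, and did not overlap with any other of the 10 genes. Bcl2a1d followed at 35.2 (29.9 to 47.5), Bcl2l1 at 24.2 (17.3 to 31.8) and Bcl2 at 18.6 (15.6 to 22.7). The ranges of Bcl2a1d and Bcl2l1 overlapped, as did those of Bcl2l1 and Bcl2, so those neighbours were not separated beyond their spread. The A1 copies together were at 40.05 CPM per kb (32.3 to 50.3), between Mcl1 and Bcl2l1. Bcl2a1b was at 4.40, Bid at 2.05, Bak1 at 0.670, Bcl2l11 at 0.530, Bcl2a1a at 0.486 and Bmf at 0.194 CPM per kb, and each of these 6 had a range overlapping the next. Exon lengths join all annotated transcripts of a gene, which lowers the value of genes with long alternative ends such as Bcl2 and Bcl2l11.

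A pro-survival gene can also be set against BIM within a library, so that no scaling between libraries enters. The log2 ratio of Bcl2 to Bcl2l11 counts (each plus 1) was 3.93, 4.28 and 5.46 in WT libraries 1 to 3 and 9.21 and 5.23 in CB2 KO libraries 1 and 3. In CB2 KO replicate 2, with 0 counts of Bcl2l11, the ratio is a lower bound of 10.5, taken against 3 counts of Bcl2l11 in that library; the 12.1 given by adding 1 depends on that addition and on depth. CB2 KO replicate 3 lay within the WT range and the other CB2 KO libraries above it. Permuting the libraries (exact, two-sided) gave p = 0.2, with either value for CB2 KO replicate 2. For Mcl1 to Bcl2l11 the log2 ratio was 4.54, 4.78 and 5.61 in WT libraries 1 to 3, 9.76 and 5.79 in CB2 KO libraries 1 and 3, and at least 10.7 in CB2 KO replicate 2. There the groups did not overlap, with CB2 KO replicate 3 just above WT replicate 3 (exact two-sided permutation test, p = 0.1, the lowest possible here). Both ratios take their size in CB2 KO replicates 1 and 2 from 5 and 0 counts of Bcl2l11. The bounds for CB2 KO replicate 2 cover counting error only. A library with under 1 count was found for 29.5% of the genes as abundant as Bcl2l11.

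By the correlation of log2 CPM over the 6 libraries, the genes most like Bcl2l11 among 7646 tested genes with a mean of at least 20 CPM were Traf3ip2, which encodes a signalling adaptor of IL-17 receptors (Pearson r = 0.999), Samm50, of the mitochondrial outer membrane (r = 0.986), and Ccna2, cyclin A2 (r = 0.982). These values describe 6 libraries and were picked as the highest of many. Traf3ip2 averaged 35.5 ± 2.14 CPM in WT against 24.4 ± 7.71 in CB2 KO (SD, n = 3 each; adjusted p = 0.602 in the edgeR quasi-likelihood F-test, Benjamini-Hochberg), so its difference was far smaller than that of Bcl2l11.

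Among 17 further genes of the BCL2 family, 15 were in the table and 13 were tested; 7 differences were positive and 6 negative (median log2 0.20), and 0 passed edgeR's test or DESeq2's. Pmaip1, encoding the BH3-only protein NOXA that binds MCL1 and A1, had the smallest p of them. It was at 37.0, 28.4 and 41.9 CPM in WT libraries 1 to 3 and at 78.2, 55.3 and 39.6 CPM in CB2 KO libraries 1 to 3, with CB2 KO replicate 3 inside the WT range (log2 difference 0.72, SE 0.29; edgeR quasi-likelihood F-test, Benjamini-Hochberg, adjusted p = 0.571). Bax had a log2 difference of 0.20 (SE 0.08). Bad, which binds BCL2 and BCL-XL, was at 27.7, 28.2 and 35.3 CPM in WT and at 46.4, 39.5 and 37.7 CPM in CB2 KO. The groups did not overlap for Bad (log2 difference 0.46, SE 0.20), with CB2 KO higher as for 6.88% of all tested genes. Differences had both signs among the other death-side genes too, with Bbc3 (PUMA) at 0.25, Bok at -0.29, Bik at -0.09 and Bnip3 at -0.17 on the log2 scale. The pro-survival gene Bcl2l2 (BCL-W) was at -0.93 (SE 1.33), with 0 counts in CB2 KO replicates 1 and 3. Neither Bax nor Bad passed (edgeR quasi-likelihood F-test, Benjamini-Hochberg, adjusted p = 0.585 for Bax and 0.600 for Bad).

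**Figure D4:**
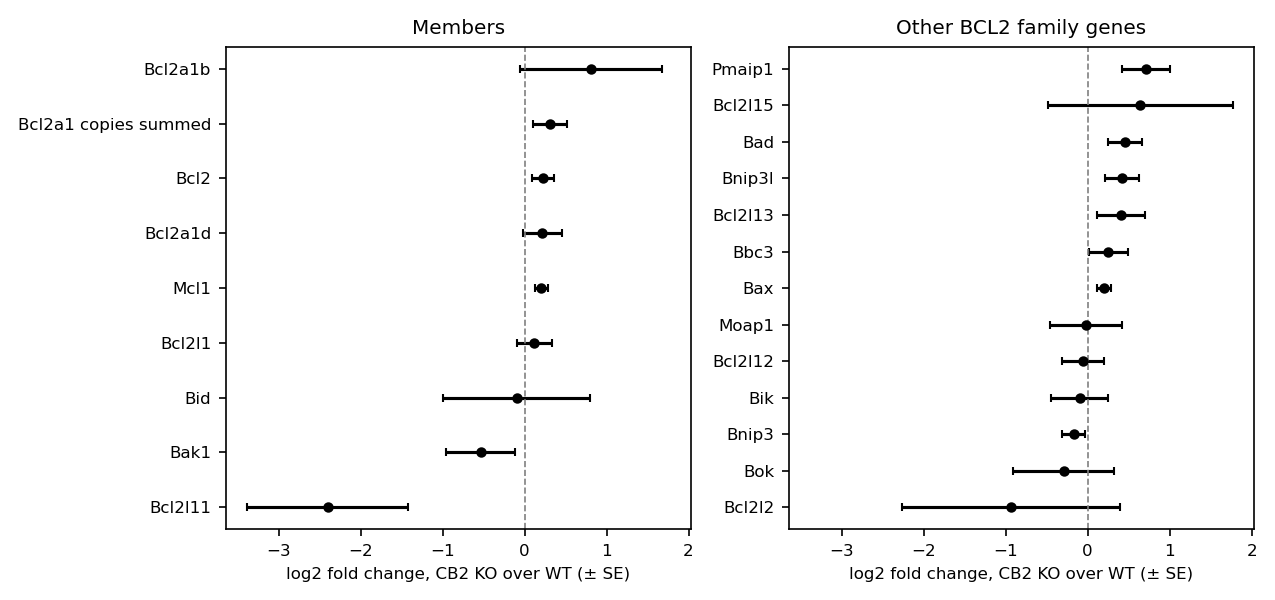
Log2 fold change of CB2 KO over WT with its standard error for the 8 tested genes and the summed A1 copies (left) and for the 13 other tested genes of the family (right). Bcl2l11 stands lowest at -2.40, with an SE of 0.98, and the tested pro-survival genes of the left panel lie between 0.12 and 0.81. In the right panel the pro-survival gene Bcl2l2 lies at -0.93, with an SE of 1.33.

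Downstream of the mitochondria, 22 genes of the apoptosome, the caspases, their inhibitors and the mitochondrial channels were tested; 13 differences were positive and 9 negative (median log2 0.03), and 0 passed by edgeR or DESeq2. At an unadjusted p under 0.05 edgeR had 3 of 22, where 8.60% of all tested genes were. The channel genes Vdac1 and Vdac2 were at 174 ± 8.78 against 144 ± 5.05 CPM and at 235 ± 25.3 against 191 ± 9.21 CPM, and VDAC2 is known to hold BAK at the membrane. Endog, a mitochondrial nuclease, was at 6.11 ± 1.67 against 12.5 ± 1.40 CPM (SD, n = 3 each). Adjusted p were 0.472, 0.475 and 0.484 for Vdac1, Vdac2 and Endog in the edgeR quasi-likelihood F-test, Benjamini-Hochberg.

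Of 12 tested death receptor genes, 5 were positive and 7 negative (median -0.04), and 0 passed by edgeR or DESeq2, nor did any have an unadjusted p under 0.05 in edgeR (0 of 12). The 3 with the smallest p were Tnfrsf1b, the second TNF receptor (216 ± 9.89 against 185 ± 21.1 CPM), the necroptosis kinase gene Ripk3 (198 ± 23.2 against 160 ± 33.4 CPM) and Fas (21.98 ± 2.10 against 35.8 ± 19.3 CPM). Fas was lowest, at 16.5 CPM, in CB2 KO replicate 3 and highest, at 55.1 CPM, in the library labelled CB2 KO replicate 1.

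Among regulators of MCL1 turnover and of BH3-only proteins, 15 were tested, of which 6 were positive and 9 negative (median -0.10), and 0 passed edgeR's test. DESeq2 called 1 of 15, where it called 2.58% of all tested genes: Ywhaz, which encodes a 14-3-3 protein that holds phosphorylated BAD (1641 ± 58.7 against 1458 ± 56.5 CPM; adjusted p = 0.422 in the edgeR quasi-likelihood F-test and 0.0204 in DESeq2, both Benjamini-Hochberg). Mapk9, encoding JNK2, was at 107 ± 8.28 and 73.7 ± 25.05 CPM, with its lowest value, 51.2 CPM, in the library labelled CB2 KO replicate 1. Foxo3, also among the 3 with the smallest p, had a log2 difference of 1.43 (SE 0.77). It did not pass (edgeR quasi-likelihood F-test, Benjamini-Hochberg, adjusted p = 0.658). Huwe1 and Usp9x, which add and remove ubiquitin on MCL1, were at 73.7 ± 13.0 against 75.6 ± 13.6 CPM and 100.1 ± 26.8 against 77.5 ± 22.6 CPM (SD, n = 3 each).

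Of 11 tested receptor and STAT5 genes of the survival cytokines in the culture, 4 were positive and 7 negative (median -0.09), and 0 passed by edgeR or DESeq2. The IL-2 receptor alpha gene Il2ra was at 2056, 2193 and 2416 CPM in WT libraries 1 to 3 and at 1978, 1811 and 1967 CPM in CB2 KO libraries 1 to 3. Il7r was at 138, 162 and 143 CPM in WT and at 128, 107 and 133 CPM in CB2 KO. Every CB2 KO library was below every WT library for both, as for 7.18% of all tested genes, and the log2 differences of -0.21 (SE 0.07) and -0.28 (SE 0.13) did not pass (edgeR quasi-likelihood F-test, Benjamini-Hochberg, adjusted p = 0.454 and 0.610). Both are also among the ILC2 markers described above, of which Gata3, Klrg1, Icos and Thy1 were separated in the same direction. Il5 was separated in the other direction, and Il1rl1, Rora and Areg overlapped between the groups. The part of these marker differences in the 2 receptor genes was not tested. Jak3, the kinase of the common gamma chain, was at 457 ± 45.4 and 404 ± 29.9 CPM (SD, n = 3 each).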

How the data were processed

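The authors deposited estimated counts per gene and library; the file names point to Partek's E/M quantification. Per the submitters' processing notes, the tools were CASAVA 1.8.2, Partek and STAR (listed as version 3.5.3), with the build mm10. The authors' second table is a normalized signal: 1 was added to the estimated count, and each library was rescaled so that its upper quartile came to about 44.6. The sources used here do not state strand use. Groups and replicate numbers came from the sample titles. The closest pair of libraries still had a chi-square of 32.9 for each degree of freedom, so none was counted as a repeat.

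In R 4.3.3, the rounded estimated counts went into edgeR 4.0.16 with TMM factors, filterByExpr, glmQLFit (robust=TRUE, legacy=FALSE), glmQLFTest, with Benjamini-Hochberg adjustment over 14084 genes at 0.05. SE is the log2 fold change over the root of F; positive means higher in CB2 KO. Alternatives used DESeq2 1.42.0 and limma 3.58.1 among others. The workflow was tested on simulated data. Coordinates and exon lengths are from GENCODE M21; each deposited stop is 1 above its end. Promoters of all 10 genes matched RefSeq GRCm38.p6. The members, lists and tests were chosen with earlier results of these data known. Named beyond the 10 genes are Cnr2 and the 3 genes with the smallest p in each list. Also named are the 3 genes most like the member with the smallest p. Others (Bax per length, Bcl2l13, Bcl2a1c, Bcl2l2, Bbc3, Bok, Bik, Bnip3, the markers named, Foxo1, Huwe1, Usp9x) were chosen after their values were seen.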

Additional observations from a re-analysis of the deposited data

How the results depend on the processing

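Under 9 other settings and with each of the 6 libraries left out in turn, 0 of the 10 genes passed the threshold, in each case among the 5 to 10 that were tested. The number of all genes called moved from 15 to 363 with DESeq2, 3 with the replicate block, 35 when genes had to average 100 counts, 24 on the authors' normalized signal, and 3 to 8 with a library left out; the cause was not tested. It was 14 with upper-quartile factors, with library size alone and without a filter. The labels do not say whether equal replicate numbers share an animal or a day. Deviations of same-numbered libraries correlated at 0.07, 0.03 and 0.02, which cannot show whether the libraries were paired. With the replicate block the log2 difference was 0.21 for Mcl1, -2.40 for Bcl2l11 and 0.31 for the summed A1 copies. Mcl1, Bcl2, Bcl2a1d, Bcl2l11, Bak1 and the summed A1 copies kept their direction under all 15 alternatives that gave a value, or 14 for Bcl2l11 and Bak1, which the filter at a mean count of 100 removes. Sizes moved: Bcl2a1d was 0.011 without CB2 KO replicate 1, Bcl2 was 0.12 without CB2 KO replicate 2, and Bcl2l11 was -4.68 with limma-voom. Bid was -2.45 with limma-voom and -0.73 on the authors' signal. With a library left out, Bcl2l1 ran from -0.10 to 0.34, Bcl2a1b from -0.060 (without CB2 KO replicate 2) to 1.42 (-1.36 with limma-voom) and Bid from -1.67 (without CB2 KO replicate 2) to 0.51 on the log2 scale, each with a change of direction. The mean log2 ratios differed by 4.29 for Bcl2 and 4.29 for Mcl1 over Bcl2l11 with 1 added to each count, values that rest on that addition where Bcl2l11 is 0. With that 0 set to 3 counts and nothing added, chosen after seeing the data, both were 3.84; with a library left out they ran from 2.66 to 6.10 and from 2.79 to 6.03. Bmf and Bcl2a1a had too few counts in most libraries, and were tested only without a filter or, for Bmf, with some libraries left out.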
